A study of Mus musculus with 119 samples.

Results

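Inflammasome genes were examined as a set of 6 members, Nlrp3, Aim2, Pycard, Casp1, Casp4 and Il18, among 18098 genes in the deposited table. The members were taken by symbol, and each symbol had a single row in that table. All 6 members were above the minimum level used for testing. RNA-seq had been performed on libraries of bone marrow-derived macrophages (BMDMs) of strain C57BL/6(NIMR), with or without lipopolysaccharide (LPS, 100 ng/ml), a bacterial cell wall component that signals through TLR4. The 22 WT libraries comprised 6 unstimulated libraries and, with LPS, 6 each for 0.5 and 1 h and 4 for 2 h. Map3k8[D270A] BMDMs, in which the TPL-2 kinase is catalytically inactive, gave 24 libraries, 6 at each of 0, 0.5, 1 and 2 h. Elk1-/-Elk4-/- BMDMs, which lack a pair of ternary complex factors that act downstream of ERK, gave 16 libraries, 4 at each of the same times. Nfkb1[SS/AA] BMDMs, whose p105 lacks the serines phosphorylated by the IKK complex, gave 18 libraries, 6 at each of 0, 0.5 and 1 h. WT BMDMs treated with the MEK inhibitor PD0325901 (0.1 µM) gave 21 libraries, 3 each with inhibitor alone for 10, 40 and 70 min and 6 each in which 10 min of inhibitor preceded LPS for 0.5 or 1 h. WT BMDMs treated with RSKi47 (2 µM), an inhibitor of RSK kinases, gave 15 libraries, 3 of them after 0.5 h of LPS and 4 each after 0, 1 and 2 h. The remaining 3 libraries were WT BMDMs with DMSO for 10 min. The labels give each arm an experiment name of its own, WT sharing one with Map3k8[D270A] only, so for the Elk1-/-Elk4-/-, Nfkb1[SS/AA], PD0325901 and RSKi47 arms the arm and the experiment cannot be told apart. No library combined DMSO with LPS.

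Inflammasomes are cytosolic complexes that macrophages build after sensing infection or damage. A sensor such as NLRP3 or AIM2 recruits the adaptor ASC, encoded by Pycard, which clusters and activates caspase-1. Caspase-1 cleaves pro-IL-1β and pro-IL-18 and the pore-forming protein gasdermin D. Caspase-11, encoded by Casp4 in the mouse, binds cytosolic LPS and cleaves gasdermin D directly. Transcription of Nlrp3 and Il1b after TLR stimulation is known as priming, and TLR4 signals to the genome through NF-κB and through MAP kinases, among them the TPL-2, MEK and ERK cascade.

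In the RefSeq annotation (GRCm38.p6) Casp1 (chr9:5298517-5307281, plus strand) and Casp4 (chr9:5308849-5336791, plus strand) were neighbours, 1567 bases apart with 0 genes between them. Nlrp3 lay at chr11:59541569-59566955 on the plus strand and Pycard at chr7:127991373-127993867 on the minus strand. The span of Aim2 (chr1:173349547-173466040, plus strand) overlapped Cadm3 and n-TRtct5, and that of Il18 (chr9:50554700-50581841, plus strand) overlapped Bco2 and Tex12. Whether exons on the same strand overlapped, and so whether any reads could have been assigned to either gene, was not examined. The promoters of Nlrp3 and Casp4, the members with the widest range over LPS times in WT BMDMs, are printed here as 300 bases of the plus strand, with matches to the NF-κB consensus motif, searched on both strands, in capitals.
Nlrp3 (chr11:59541319-59541618): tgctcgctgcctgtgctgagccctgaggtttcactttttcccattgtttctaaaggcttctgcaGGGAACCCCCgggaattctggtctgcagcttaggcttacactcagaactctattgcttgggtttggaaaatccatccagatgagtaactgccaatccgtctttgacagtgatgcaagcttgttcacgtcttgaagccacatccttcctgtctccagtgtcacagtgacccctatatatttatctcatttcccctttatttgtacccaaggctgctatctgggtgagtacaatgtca
Casp4 (chr9:5308599-5308898): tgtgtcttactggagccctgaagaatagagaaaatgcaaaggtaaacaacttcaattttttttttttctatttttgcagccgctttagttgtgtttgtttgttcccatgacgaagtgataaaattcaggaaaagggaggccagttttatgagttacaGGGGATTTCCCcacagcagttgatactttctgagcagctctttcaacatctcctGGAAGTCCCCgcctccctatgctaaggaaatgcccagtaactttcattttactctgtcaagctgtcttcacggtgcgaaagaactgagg
The Nlrp3 window held 1 match, starting at -186 from the start site, and a second Nlrp3 window, at a start site further downstream, held none. The Casp4 window held 3 matches, a pair of overlapping ones at -93 and -92 and another at -39. Of 32851 RefSeq windows of the same length, 8.46% held an NF-κB match. The core ETS motif CCGGAAG, present in 8.86% of all windows, was found in the Aim2 window (at -166) and in no window of the other members. The AP-1 motif TGANTCA (7.81% of all windows), the CArG box of SRF (1.63%), the ISRE (3.44%) and the GAS letters TTCNNNGAA (8.3%) had no match in the windows of the 6 members. A match in these letters is a description of the sequence and not evidence of binding.

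Each deposited value was a log2 quantity, normalized over the libraries. No source used here states the transformation, which may draw differences together, so a difference of 1 need not be a 2-fold change in counts. Differences are given on this scale ± SE with the adjusted p of limma, and a call is an adjusted p below 0.05. Elk1 and Elk4 fell from means of 9.14 and 7.72 in unstimulated WT to 6.36 and 5.71 in Elk1-/-Elk4-/- BMDMs, while the Map3k8 and Nfkb1 alleles are point mutations that the mRNA level does not check. The summed level of 6 macrophage markers was 18.26 to 19.12 over all libraries, and in Elk1-/-Elk4-/- BMDMs, at 18.26 to 18.52, it was below every WT library of the same time. T cell and B cell markers were below the minimum in every library, as were Flt3 and Cd209a of 4 dendritic cell markers and Cpa3 of the mast cell markers. Of 9 neutrophil markers, Ly6g, Elane and Mpo were below the minimum in every library. The summed level of the 9 was 6.31 to 7.77 in WT libraries and 10.05 to 11.05 in Elk1-/-Elk4-/- libraries. The replicate 2 library of Nfkb1[SS/AA] at 1 h and the replicate 4 libraries of RSKi47 stood apart from their groups, and results that rest on them are given with and without them.

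LPS changed all 6 members in WT BMDMs by 2 h. Nlrp3 rose first and was highest at 1 h, Casp4 rose from 1 h and was highest at 2 h, Casp1 and Il18 moved mainly between 1 and 2 h, Aim2 increased in steps, and Pycard fell before returning to near its starting level. At 0.5 h 2 of 6 members passed (11.6% of all genes tested), at 1 h 4 of 6 (46.8%) and at 2 h 6 of 6 (71.5%). Between 1 and 2 h 6 of 6 members changed (65.3%). Both dendritic cell markers tested, Zbtb46 and Xcr1, also rose at 1 and 2 h, the summed level of that list going from 4.25 to 4.39 without LPS to 5.75 to 6.04 at 2 h, and their part was not tested. In bulk RNA, fewer cells of a type and less RNA per cell cannot be told apart.

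Among the sensors, Nlrp3 was at 11.08, 11.12 and 11.16 (lowest, median and highest of 6) in unstimulated WT BMDMs and at 11.48, 11.98 and 12.28 after 0.5 h. At 1 h its values were 14.18, 14.31 and 14.52, and at 2 h they were 13.30, 13.28, 13.20 and 13.34 in replicates 4 to 7. No stimulated library overlapped the unstimulated ones. The rise was 0.81 ± 0.08 at 0.5 h (adjusted p = 8.27e-12, limma), 3.21 ± 0.08 at 1 h (2.64e-38) and 2.16 ± 0.09 at 2 h (1.31e-28), and Nlrp3 then fell by 1.05 from 1 to 2 h (2.41e-15). The 0.5 h rise was 0.46 over WT replicates 4 to 6 and 1.16 over replicates 7 to 9. Aim2, whose product binds cytosolic DNA, was at 9.05, 9.29 and 9.35 without LPS, at 9.43, 9.46 and 9.56 after 0.5 h and at 9.74, 9.81 and 9.87 after 1 h. At 2 h its values were 10.07, 10.02, 10.05 and 9.97. Each group lay above the one before it without overlap. The Aim2 difference was 0.24 ± 0.08 at 0.5 h (adjusted p = 0.0547, or 0.000736 with the replicate number as a block, and 0.00687 to 0.0305 with library weights, only the groups of the contrast, the second fit or quantile normalization), 0.56 ± 0.08 at 1 h (1.22e-07) and 0.78 ± 0.09 at 2 h (1.59e-10). The step of Aim2 from 1 to 2 h, 0.22 ± 0.09 (0.0352), did not pass when any 1 of WT replicates 4 to 9 was left out (0.0587 to 0.0788), without the filter (0.0529) or after quantile normalization (0.0614).

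Pycard, the adaptor, was the only member that fell early. Its values were 10.66, 10.71 and 10.74 without LPS, 10.51, 10.57 and 10.59 at 0.5 h and 10.41, 10.51 and 10.61 at 1 h, with no overlap of either stimulated group and the unstimulated one. At 2 h the 4 libraries stood at 10.77, 10.75, 10.80 and 10.85, all above the unstimulated libraries. The change was -0.15 ± 0.03 at 0.5 h (adjusted p = 0.00174, limma), -0.20 ± 0.03 at 1 h (1.48e-06) and 0.09 ± 0.04 at 2 h (0.0415). The 2 h value turned to -0.15 (0.000877) when the libraries were quantile normalized, and did not pass without WT replicate 4 (0.0582), 6 (0.0881) or 7 (0.236), with median centring (0.0758) or in the second fit (0.0511), so its direction at 2 h depends on the scaling.

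Of the caspases, Casp4 was at 8.84, 9.18 and 9.24 without LPS and at 8.98, 9.13 and 9.31 at 0.5 h, groups that overlapped. At 1 h it was at 10.20, 10.45 and 10.65 and at 2 h at 11.51, 11.45, 11.71 and 11.40, so each of these groups was above all earlier ones. The rise was 1.32 ± 0.09 at 1 h (adjusted p = 1.39e-19, limma) and 2.40 ± 0.10 at 2 h (3.21e-29), and the further step from 1 to 2 h was 1.09 ± 0.10 (1.09e-14). Casp1, the neighbouring gene, was at 11.05, 11.14 and 11.19 in unstimulated BMDMs, 11.08, 11.11 and 11.19 after 0.5 h of LPS and 11.14, 11.23 and 11.28 after 1 h, 3 groups that overlapped. Its 2 h libraries were at 11.94, 11.80, 11.95 and 11.71, all above the others, a rise of 0.72 ± 0.07 (1.09e-12). Il18, the caspase-1 substrate of the set, was at 7.06, 7.35 and 7.46 without LPS, 6.96, 7.29 and 7.43 at 0.5 h and 7.33, 7.49 and 7.58 at 1 h. At 2 h its libraries were at 7.91, 7.82, 7.93 and 7.72, above every unstimulated library, with a rise of 0.53 ± 0.08 (3.53e-08). The 1 h difference of Il18 was 0.16 ± 0.07 (0.0532, or 0.00553 with the replicate number as a block, and 0.0416 without WT replicate 6). It also passed with library weights (0.13, 0.0445) and after quantile normalization (0.22, 0.00236).

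**Figure D1:**
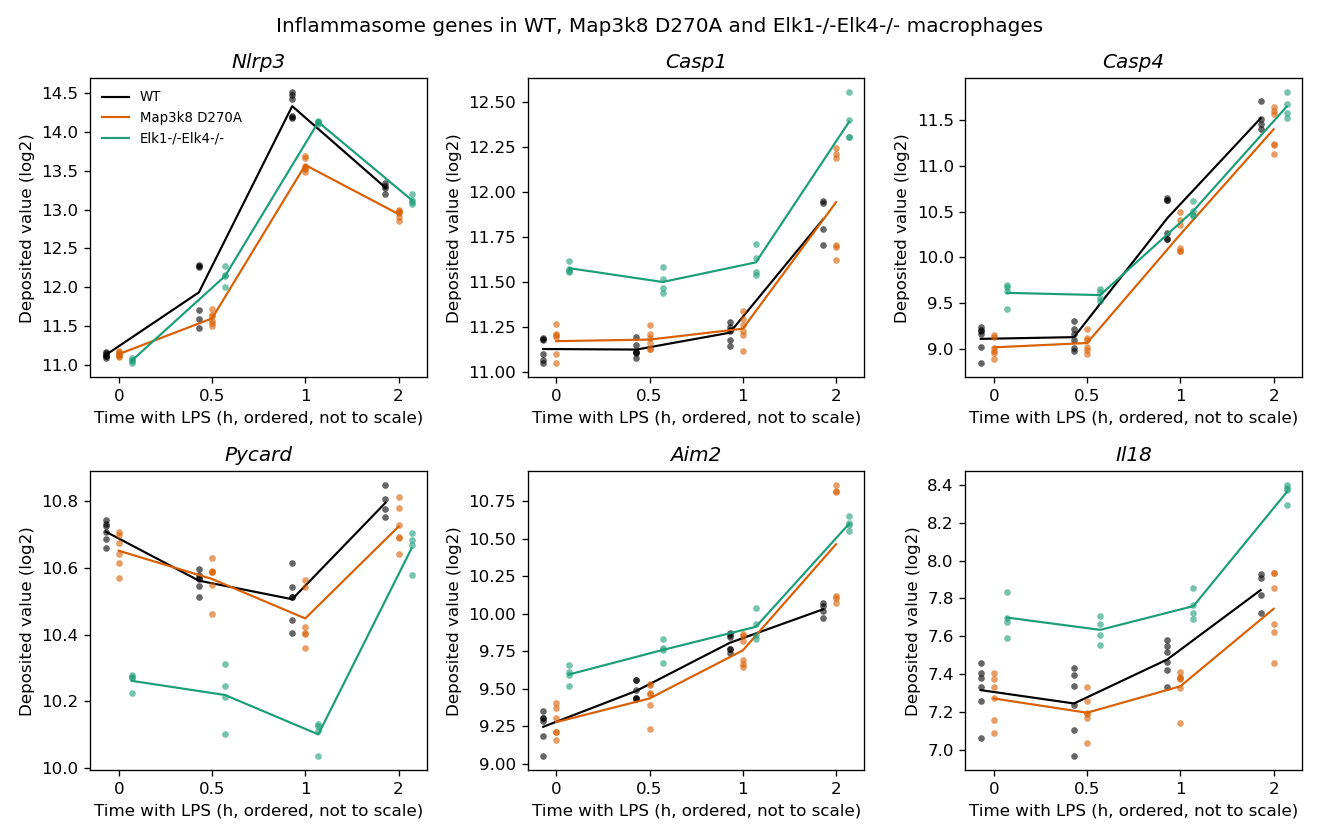
Deposited log2 values of the 6 members against time with LPS (hours, in order, not to scale) in WT, Map3k8 D270A and Elk1-/-Elk4-/- BMDMs, with 1 point per library and a line through the group means. Nlrp3 peaks at 1 h in all 3 genotypes, with means of 14.33 in WT, 13.57 in Map3k8 D270A and 14.13 in Elk1-/-Elk4-/- BMDMs.

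The next question was whether TPL-2 kinase activity set the level of these genes. Without LPS 0 of 6 members differed between Map3k8[D270A] and WT BMDMs (1.44% of all genes passed limma, 1420 genes and 0 members had an unadjusted p below 0.05). With LPS, Nlrp3 was lower in Map3k8[D270A] BMDMs at all 3 times, Aim2 was higher at 2 h, and no other member passed. The counts were 1 of 6 at 0.5 h (1.37%), 1 of 6 at 1 h (9.79%) and 2 of 6 at 2 h (27.7%). Of 6 macrophage markers 1 was lower than in WT at 1 h and 2 at 2 h, where 1 of 2 dendritic cell markers was also lower. No cell type marker was higher at any time, and the part of these markers was not tested.

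Nlrp3 in Map3k8[D270A] BMDMs was at 11.11, 11.13 and 11.18 without LPS and at 11.50, 11.60 and 11.71 at 0.5 h, within the spread of WT. At 1 h it was at 13.48, 13.55 and 13.68, below every WT library, and at 2 h at 12.85, 12.96 and 13.00, again below every WT library. The differences were -0.34 ± 0.08 at 0.5 h (adjusted p = 0.0124, limma), -0.76 ± 0.08 at 1 h (1.52e-10) and -0.34 ± 0.09 at 2 h (0.00274). The rise of Nlrp3 from no LPS to 1 h was smaller in Map3k8[D270A] than in WT BMDMs by 0.77 ± 0.11, a difference of responses of -0.77 (3.38e-06). It ranged from -0.80 to -0.73 with each library left out in turn, and was -0.84 over the lower replicate numbers (WT 4 to 6, Map3k8[D270A] 1 to 3) and -0.70 over the higher ones. This was the only member whose 1 h response differed (2.02% of all genes passed).

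At 0.5 h the WT values of Nlrp3 divided by replicate number, with a mean of 11.59 in replicates 4 to 6 and 12.27 in replicates 7 to 9. The difference from Map3k8[D270A] was -0.03 (adjusted p = 0.825, limma) over the lower replicate numbers of both genotypes and -0.65 (1.4e-08) over the higher ones, and over all libraries it did not pass without WT replicate 7 (-0.27, 0.0955), 8 (-0.27, 0.102) or 9 (-0.27, 0.058), with library weights (-0.13, 0.233) or with only the groups of the contrast (0.381). The labels name no batch for these numbers. For the response at 0.5 h, 0 of 6 members passed limma (0.109% of all genes), 249 genes and 1 member, Nlrp3 (-0.35 ± 0.11), having an unadjusted p below 0.05.

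Aim2 in Map3k8[D270A] BMDMs at 2 h was at 10.07, 10.46 and 10.86, above every WT library, a difference of 0.43 ± 0.09 (adjusted p = 0.000313, limma, or 0.141 with only the groups of the contrast). It too divided by replicate number, with means of 10.83 in Map3k8[D270A] replicates 1 to 3 and 10.10 in replicates 4 to 6. The difference from WT was 0.78 over the lower numbers and 0.13 (0.37) over the higher ones, where WT had a single library. Casp1 showed the same division at 2 h, with Map3k8[D270A] means of 12.22 and 11.67 against a range of 11.71 to 11.95 in WT, and its difference of 0.32 over the lower numbers passed (1.6e-06) while that over all libraries, 0.10 ± 0.07, did not (0.37). With library weights the Casp1 difference was 0.23 (0.000122), that of its 2 h response 0.21 (0.0118) and that of its change from 1 to 2 h 0.21 (0.0213), all of which passed. Casp4 at 2 h had Map3k8[D270A] means of 11.60 in replicates 1 to 3 and 11.20 in replicates 4 to 6, and -0.12 ± 0.10 over all libraries (0.39).

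At 2 h the responses of 2 of 6 members differed from WT (15.5% of all genes). These were Nlrp3, by -0.35 ± 0.12 (adjusted p = 0.0361, limma), and Aim2, by 0.40 ± 0.13 (0.0221). Nlrp3 did not pass without WT replicate 7 or any 1 of Map3k8[D270A] replicates 1 to 5 (0.0527 to 0.0698), without the filter (0.0527) or after quantile normalization (-0.28, 0.112), nor Aim2 without any 1 of WT replicates 4 to 7 or Map3k8[D270A] replicates 1 to 3 (0.0501 to 0.0702). The change from 1 to 2 h also differed for 2 of 6 members (11.4%), a comparison added after the data were seen. Nlrp3 fell by 1.05 in WT and by 0.63 in Map3k8[D270A] BMDMs, a difference of 0.42 ± 0.12 (0.0137, or 0.37 and 0.0668 without WT replicate 6), and Aim2 rose by 0.22 and 0.71, a difference of 0.48 ± 0.13 (0.00639). For Aim2 the values again parted by replicate number. The difference in the change from 1 to 2 h was 0.79 over the lower numbers and 0.22 (0.288) over the higher ones, that of the 2 h response was 0.74 and 0.11 (0.639), and with only the groups of the contrast neither passed (0.12 and 0.187).

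**Figure D2:**
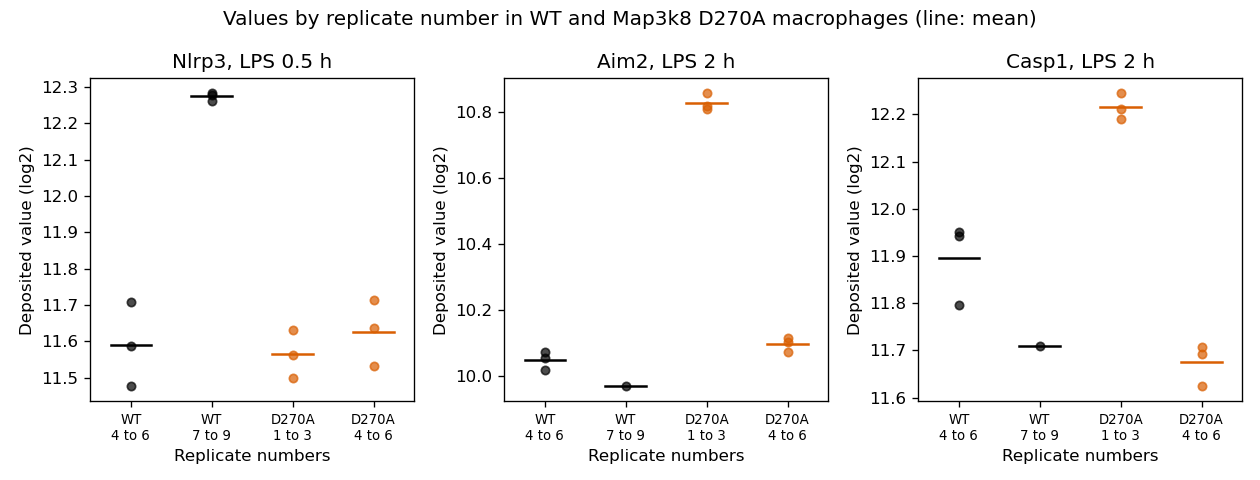
Deposited log2 values of Nlrp3 at 0.5 h, Aim2 at 2 h and Casp1 at 2 h of LPS, split by replicate number in WT and Map3k8 D270A BMDMs, with 1 point per library and a line at the mean. WT Nlrp3 at 0.5 h averages 11.59 in replicates 4 to 6 and 12.27 in replicates 7 to 9, and Map3k8 D270A Aim2 at 2 h averages 10.83 in replicates 1 to 3 and 10.10 in replicates 4 to 6.

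Pycard, Casp4 and Il18 in Map3k8[D270A] BMDMs stayed within 0.18 of WT at each time. Pycard means were 10.65, 10.57, 10.45 and 10.72 at 0, 0.5, 1 and 2 h, those of Casp4 9.02, 9.07, 10.25 and 11.40, and those of Il18 7.27, 7.20, 7.34 and 7.75. The largest of these differences were -0.18 ± 0.09 for Casp4 at 1 h (adjusted p = 0.214, limma) and -0.14 ± 0.07 for Il18 at 1 h (0.224). Within each set of replicate numbers, however, the Casp4 libraries at 1 h lay below those of WT, at 10.36 to 10.49 against 10.62 to 10.65 for the lower numbers and at 10.07 to 10.10 against 10.20 to 10.27 for the higher ones. The Casp4 difference was -0.21 (0.0215) over the lower numbers and -0.14 (0.387) over the higher ones, and it passed with the set as a term (0.0471) and with library weights (-0.22, 0.0279). That of Il18 was -0.16 (0.0302) and -0.12 (0.664) over the same sets. Within Map3k8[D270A] BMDMs LPS itself changed 1 of 6 members at 0.5 h (5.08%), 4 of 6 at 1 h (41.9%), 5 of 6 at 2 h (69.5%) and 6 of 6 between 1 and 2 h (61.6%). Nlrp3 rose by 0.46 ± 0.08, 2.44 ± 0.08 and 1.81 ± 0.08 at 0.5, 1 and 2 h, Casp4 by 1.23 ± 0.09 and 2.38 ± 0.09 at 1 and 2 h, and Aim2 by 1.19 ± 0.08 at 2 h. Pycard, at -0.08 by 0.5 h and 0.07 by 2 h, passed with library weights at 0.5 h (-0.11, 0.0146). At 2 h Pycard passed with replicate blocks within each arm (0.0432) and without Map3k8[D270A] replicate 3 (0.0479) or 5 (0.0358), but turned to -0.15 (0.000291) after quantile normalization.

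In Elk1-/-Elk4-/- BMDMs the members other than Nlrp3 were shifted before LPS was given. Casp1, Casp4, Aim2 and Il18 were higher and Pycard lower than in WT without LPS, 5 of 6 members, beside 51.8% of all genes. The counts with LPS were 5 of 6 at 0.5 h (44.4%), 4 of 6 at 1 h (53.4%) and 4 of 6 at 2 h (50.8%). All 6 tested neutrophil markers were also higher than in WT at all 4 times. Of 6 macrophage markers 2 or 3 were lower and 1 was higher at each time. The mast cell marker Kit was higher at 0, 0.5 and 1 h and the fibroblast marker Col1a2 at 0.5, 1 and 2 h. The part of these markers in the results was not tested.

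Casp1 in Elk1-/-Elk4-/- BMDMs was at 11.56, 11.56, 11.62 and 11.57 without LPS and at 12.31, 12.40, 12.56 and 12.31 at 2 h. It was above every WT library at all 4 times, by 0.45 ± 0.07 without LPS (adjusted p = 1.39e-06, limma), 0.38 ± 0.07 at 0.5 h (4.64e-05), 0.39 ± 0.07 at 1 h (1.62e-05) and 0.54 ± 0.08 at 2 h (1.88e-07). Il18 was at 7.69, 7.83, 7.68 and 7.59 without LPS and at 8.29, 8.38, 8.40 and 8.37 at 2 h, likewise above WT without overlap at all 4 times. The unstimulated difference of Il18 was 0.38 ± 0.08 (5.37e-05), followed by 0.39 ± 0.08 (6.4e-05), 0.28 ± 0.08 (0.00218) and 0.52 ± 0.09 (1.54e-06) at 0.5, 1 and 2 h.

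Pycard was at 10.28, 10.27, 10.22 and 10.27 without LPS, 10.31, 10.25, 10.10 and 10.21 by 0.5 h and 10.13, 10.13, 10.04 and 10.11 by 1 h, in each case below every WT library. At 2 h it was at 10.68, 10.58, 10.67 and 10.70, still below the 4 WT libraries. The difference was -0.45 ± 0.04 without LPS (adjusted p = 8.25e-14, limma), -0.34 ± 0.04 at 0.5 h (4.18e-10), -0.40 ± 0.04 at 1 h (1.69e-12) and -0.14 ± 0.04 at 2 h (0.00583). The gap had narrowed at 2 h, and the 2 h response of Pycard was greater than in WT by 0.31 ± 0.06 (6.26e-05), the only member of 6 that passed there in the main fit (16.9% of all genes). With replicate blocks within each arm Aim2 (0.24, 0.0409) and Casp4 passed as well, and Casp4 also passed under some settings without a block, as given below. The change of Pycard from 1 to 2 h also differed, by 0.27 ± 0.06 (0.000656).

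Casp4 in Elk1-/-Elk4-/- BMDMs was at 9.68, 9.44, 9.70 and 9.64 without LPS and at 9.55, 9.53, 9.66 and 9.62 at 0.5 h, above every WT library. At 1 h (10.45, 10.51, 10.62 and 10.46) and 2 h (11.58, 11.67, 11.80 and 11.52) the groups overlapped. The difference was 0.50 ± 0.10 without LPS (adjusted p = 2.05e-05, limma) and 0.46 ± 0.10 at 0.5 h (0.000117), against 0.08 ± 0.10 at 1 h (0.498) and 0.13 ± 0.11 at 2 h (0.32). The response of Casp4 differed from that of WT by -0.42 ± 0.14 at 1 h (0.143) and -0.37 ± 0.14 at 2 h (0.0631, or 0.0484 without Elk1-/-Elk4-/- replicate 2). Both passed with replicate blocks within each arm (-0.42, 0.003, and -0.33, 0.0112) and with library weights (0.00398 and 0.00704), and that at 2 h also after quantile normalization (0.0213) and with only the groups of the contrast (0.0481). Aim2 was at 9.66, 9.52, 9.61 and 9.59 without LPS and at 10.55, 10.65, 10.59 and 10.61 at 2 h, above WT without overlap at 0, 0.5 and 2 h. Its difference was 0.35 ± 0.09 (0.00174), 0.27 ± 0.09 (0.0166, or 0.0597 without Elk1-/-Elk4-/- replicate 3), 0.11 ± 0.09 (0.348) and 0.57 ± 0.10 (8.38e-06) at the 4 times. The change of Aim2 from 1 to 2 h differed by 0.46 ± 0.14 (0.0207), which did not pass without Elk1-/-Elk4-/- replicate 1 (0.0602), 2 (0.0693) or 4 (0.0545), so 2 of 6 members passed for that change (12.3% of all genes). Il18, at 0.24 ± 0.12 (0.194), passed as well with replicate blocks within each arm (0.28, 0.0122).

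Nlrp3 was the member that did not pass between Elk1-/-Elk4-/- and WT BMDMs without LPS (-0.07 ± 0.09, adjusted p = 0.517, limma). It was at 11.06, 11.05, 11.02 and 11.09 without LPS, 12.15, 12.00, 12.14 and 12.27 at 0.5 h, 14.10, 14.12, 14.15 and 14.13 at 1 h and 13.07, 13.20, 13.10 and 13.12 at 2 h. The difference at 1 h, -0.21 ± 0.09 (adjusted p = 0.0479, limma), passed, but did not when any 1 of WT replicates 4 to 6 or of the 4 Elk1-/-Elk4-/- replicates was left out (0.0745 to 0.104), without the filter (0.0695) or after quantile normalization (-0.13, 0.192). At 0.5 h the difference was 0.21 ± 0.09 (0.0509), and it was 0.28 without WT replicate 7, 8 or 9 and 0.26 without Elk1-/-Elk4-/- replicate 2, which passed (0.00722 to 0.0356), but 0.12 without WT replicate 4 (0.248). It passed with library weights (0.40, 1.69e-05), a variance trend (0.0483), median centring (0.0455) and the second fit (0.034). At 2 h the Elk1-/-Elk4-/- libraries were below those of WT without overlap, with a difference of -0.16 ± 0.10 (0.177) that passed with library weights (0.0376) and with only the groups of the contrast (0.0304). For the response, 0 of 6 members passed limma at 0.5 h (0.0589%, with 528 genes and 1 member below an unadjusted p of 0.05) and 0 of 6 at 1 h (1.35%, with 862 genes and 1 member). Nlrp3 at 0.5 h, 0.28, was 0.47 (0.00558) with library weights. Within Elk1-/-Elk4-/- BMDMs LPS changed 1 of 6 members at 0.5 h (4.96%), 4 of 6 at 1 h (33.3%), 6 of 6 at 2 h (67.2%) and 6 of 6 between 1 and 2 h (61.8%), with Nlrp3 up by 1.09 ± 0.10, 3.07 ± 0.10 and 2.07 ± 0.10. The call of Aim2 at 1 h (0.32) was lost without Elk1-/-Elk4-/- replicate 2 (0.0536), 3 (0.0852) or 4 (0.0563).

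Nfkb1[SS/AA] BMDMs were compared with WT to ask what depended on IKK-induced proteolysis of p105, which also releases TPL-2. Nlrp3 was lower than in WT without LPS and at 1 h, Casp1 was higher and Pycard lower at all 3 times, and Casp4 was higher at 0 and 0.5 h. The Casp1 and Casp4 values at 0 and 0.5 h parted by replicate number, as given below. The members passed 4 of 6 without LPS (32% of all genes), 3 of 6 at 0.5 h (32.3%) and 3 of 6 at 1 h (42.5%). The summed neutrophil markers were at 6.78 to 8.37 in this arm, and 0, 0 and 3 of the 6 tested were higher than in WT at 0, 0.5 and 1 h, while Kit was lower at all 3 times. Their part in the results was not tested.

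Nlrp3 in Nfkb1[SS/AA] BMDMs was at 10.71, 10.80 and 10.91 without LPS, 11.92, 12.05 and 12.31 by 0.5 h and 13.60, 13.91 and 14.10 by 1 h. The first and last of these groups were below every WT library and the middle one overlapped WT. The differences were -0.31 ± 0.08 (adjusted p = 0.000571, limma), 0.16 ± 0.08 (0.102) and -0.45 ± 0.08 (4.7e-07, or -0.39 and 1.52e-05 without the replicate 2 library). At 0.5 h the difference was 0.22 to 0.23 without WT replicate 7, 8 or 9, which passed (0.0159 to 0.0203), and 0.07 and 0.09 without WT replicates 4 and 5 (0.538 and 0.412). With library weights it was 0.36 (5.39e-07). The response of Nlrp3 was greater than in WT at 0.5 h by 0.47 ± 0.11 (0.0132), the only member of 6 that passed (0.309% of all genes), but did not pass without WT replicate 4 (0.38, 0.126), 5 (0.40, 0.119) or 6 (0.42, 0.0989), or with only the groups of the contrast (0.819). At 1 h the response difference of Nlrp3 was -0.14 ± 0.11 (0.563), and 0 of 6 members passed limma (6.07% of all genes, with 2065 genes and 1 member below an unadjusted p of 0.05). Casp4, at -0.25 ± 0.13 (0.325), had an adjusted p of 0.0474 there with replicate blocks within each arm.

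Pycard was at 10.47, 10.54 and 10.63 without LPS and at 10.37, 10.41 and 10.42 at 0.5 h, below every WT library. At 1 h it was at 10.29, 10.35 and 10.68, the highest being the replicate 2 library. Its differences were -0.16 ± 0.04 (adjusted p = 0.000229, limma), -0.16 ± 0.04 (0.00031) and -0.11 ± 0.04 (0.00767), the last becoming -0.17 (1.09e-05) without the replicate 2 library and not passing with only the groups of the contrast (0.24). Casp1 differed by 0.18 ± 0.06 without LPS (0.0179, or 0.108 without Nfkb1[SS/AA] replicate 6 and 0.0507 with only the groups of the contrast), 0.16 ± 0.06 at 0.5 h (0.0378) and 0.19 ± 0.06 at 1 h (0.00712), and only at 1 h, with values of 11.37, 11.39 and 11.47, did its libraries clear those of WT. The 0.5 h difference of Casp1 did not pass when any 1 of WT replicates 6 to 9 or Nfkb1[SS/AA] replicates 4 to 6 was left out (0.0583 to 0.191), without the filter (0.0537) or with only the groups of the contrast (0.0948). Casp4 varied widely in this arm, at 9.12, 9.37 and 9.94 without LPS and at 9.29, 9.49 and 10.04 at 0.5 h, overlapping WT, with differences of 0.36 ± 0.09 (0.00136, or 0.0739 with only the groups of the contrast) and 0.42 ± 0.09 (0.000204). Without LPS, Casp4 was at 9.12 to 9.25 in replicates 1 to 3 and at 9.48 to 9.94 in replicates 4 to 6. Casp1 was at 11.17 to 11.20 and 11.32 to 11.54 in these sets. The highest unstimulated WT libraries were at 9.24 and 11.19. At 0.5 h the sets were at 9.29 to 9.41 and 9.57 to 10.04 for Casp4 and at 11.12 to 11.19 and 11.33 to 11.53 for Casp1. Il18 without LPS parted too, at 7.11 to 7.21 and 7.51 to 7.57. Aim2 (means of 9.36, 9.60 and 9.72) and Il18 (7.36, 7.32 and 7.51) did not pass at any of the 3 times. Within the arm LPS changed 3 of 6 members at 0.5 h (14.6%) and 4 of 6 at 1 h (44.4%), with Nlrp3 up by 1.28 ± 0.08 and 3.07 ± 0.08 and Casp4 by 1.07 ± 0.09 at 1 h, while Casp1 (0.11 ± 0.06) and Il18 (0.15 ± 0.08) at 1 h passed with the replicate block (0.0443 and 0.00885), Il18 also after quantile normalization (0.22, 0.00962). The fall of Pycard there (-0.15) did not pass with only the groups of the contrast (0.0844). At 0.5 h the rise of Aim2 (0.24) did not pass without Nfkb1[SS/AA] replicate 1 (0.0513) or 5 (0.0511).

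Nlrp3 was lower in BMDMs given PD0325901 before LPS than in WT BMDMs given LPS alone. Nlrp3 was at 11.47, 11.55 and 11.60 at 0.5 h, overlapping WT, and at 13.84, 13.87 and 13.91 at 1 h, below every WT library. The difference was -0.39 ± 0.08 at 0.5 h (adjusted p = 2.42e-05, limma), the only call among 6 members (29.4% of all genes), and -0.46 ± 0.08 at 1 h (5.49e-07). The 0.5 h libraries overlapped WT replicates 4 to 6 (mean 11.59) and were below replicates 7 to 9 (mean 12.27), and with only the groups of the contrast the 0.5 h difference did not pass (0.0519). At 0.5 h Casp1 (0.14) passed with library weights (0.00944) and with only those groups (0.00428), as did Casp4 (0.20, 0.0218 and 0.0221), and Il18 (0.16) after quantile normalization (0.0485). At 1 h 2 of 6 members passed (35.7%), the other being Casp1 at 0.15 ± 0.06 (0.0447), which did not pass in 10 of 12 fits that left out a library, those without any 1 of WT replicates 5 to 9 or PD0325901 replicates 1, 2, 3, 4 or 6 (0.0534 to 0.0936), nor without the filter (0.0634) or with PD0325901 replicates averaged in pairs (0.15).

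Without LPS the libraries of this experiment had Nlrp3 values below those of unstimulated WT. Nlrp3 was at 10.92, 10.96 and 10.94 with DMSO, at 10.97 ± 0.03 (mean ± SD of 3) after 10 min of inhibitor, at 10.91, 10.88 and 10.94 after 40 min and at 10.68, 10.71 and 10.74 after 70 min, all below the lowest unstimulated WT library. DMSO differed from unstimulated WT by -0.18 ± 0.09 for Nlrp3 (adjusted p = 0.141, limma), and 2 of 6 members passed (23.6% of all genes), Aim2 at 0.24 ± 0.09 (0.0396) and Pycard at -0.11 ± 0.04 (0.0487). Nlrp3 passed with library weights (0.00202), with only the groups of the contrast (0.00249) and after quantile normalization (0.0485), and with library weights Casp1 (0.00403, or 0.0235 with only the groups of the contrast) and Casp4 (0.0222) did as well. The call of Pycard was lost without any 1 of WT replicates 4, 5, 6, 8 and 9 (0.0549 to 0.0807), that of Aim2 without WT replicate 7 (0.0683) or 9 (0.107), and both without any 1 of the 3 DMSO libraries (0.0712 to 0.155) or without the filter (0.0637 and 0.0581). Against inhibitor alone for the same total time, Nlrp3 rose with LPS by 0.63 ± 0.09 at 0.5 h and 3.16 ± 0.09 at 1 h, which differed from the WT rises by -0.18 ± 0.12 (0.691) and -0.04 ± 0.12 (0.943). The responses of 0 of 6 members differed from WT at 0.5 h (1.49%, with 1216 genes and 0 members below an unadjusted p of 0.05 in limma) and 0 of 6 at 1 h (3.58%, with 1667 genes and 0 members). The lower Nlrp3 level with PD0325901 and LPS was found against WT of another experiment, and the response measured within the experiment did not pass the test of a difference from WT.

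Without LPS, 0 of 6 members passed limma between 10 min of PD0325901 and DMSO (0% of all genes, with 245 genes and 0 members below an unadjusted p of 0.05). Between 40 and 10 min of inhibitor 0 of 6 passed (3.58%, with 1747 genes and 2 members below an unadjusted p of 0.05), and between 70 and 10 min 0 of 6 (6.09%, with 2044 genes and 2 members). Nlrp3 differed by -0.26 ± 0.11 at 70 min (adjusted p = 0.141, limma), groups that did not overlap, and passed with library weights (0.000159) and with only the groups of the contrast (0.00709). With library weights Casp1 (0.000202) and Aim2 (0.0371) passed there too, Casp1 also with only those groups (0.0455), and Casp1, Casp4, Pycard and Aim2 at 40 min (8.78e-06 to 0.0272). Within the arm LPS changed 2 of 6 members at 0.5 h (14.9%) and 5 of 6 at 1 h (43.6%), the latter being Nlrp3, Casp4 (1.07 ± 0.11), Aim2 (0.41 ± 0.09), Casp1 (0.19 ± 0.07) and, downward, Pycard (-0.15 ± 0.04). Casp1 there had an adjusted p of 0.03, or 0.184 without PD0325901 replicate 1 and 0.129 without replicate 2, 0.0817 with replicates averaged in pairs and 0.528 (at 0.05) after quantile normalization. With library weights Casp1 (0.11, 0.00458) and Aim2 (0.11, 0.00809) passed at 0.5 h, Aim2 also with only the groups of the contrast (0.034), and Il18 at 1 h (0.15, 0.0191). Neutrophil markers summed to 7.33 to 8.82 in PD0325901 libraries and 7.57 to 8.27 with DMSO, above most WT libraries, and 6 and 5 of 6 were higher than in WT with LPS for 0.5 and 1 h, where Kit was lower. Their part was not tested.

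RSKi47 left Nlrp3 high at 2 h, when it had fallen in WT BMDMs. Nlrp3 was at 13.83, 13.83, 13.94 and 13.50 in RSKi47 replicates 1 to 4 at 1 h, below every WT library, and at 13.74, 13.79, 13.87 and 13.41 at 2 h, above every WT library. The difference from WT was -0.56 ± 0.08 at 1 h (adjusted p = 2.32e-08, limma) and 0.42 ± 0.09 at 2 h (6.32e-05). Without the replicate 4 libraries these differences were -0.47 (2.26e-06) and 0.52 (1.03e-06). Between 1 and 2 h Nlrp3 changed by -0.07 ± 0.09 with RSKi47, groups that overlapped (or -0.21 and 0.0447 after quantile normalization), and by -1.05 ± 0.09 in WT, and the difference between these changes was 0.98 ± 0.12 (1.34e-09). It stayed between 0.93 and 1.03 with each library left out in turn, and was 0.99 (1.16e-09) without the replicate 4 libraries. The other member whose change from 1 to 2 h differed was Pycard, so 2 of 6 passed (14.9% of all genes), and Aim2, at 0.26 ± 0.12 (0.142), passed as well without replicate 4 (0.36, 0.0392), with replicate blocks within each arm (0.28, 0.0192) and with library weights (0.31, 0.00421).

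**Figure D3:**
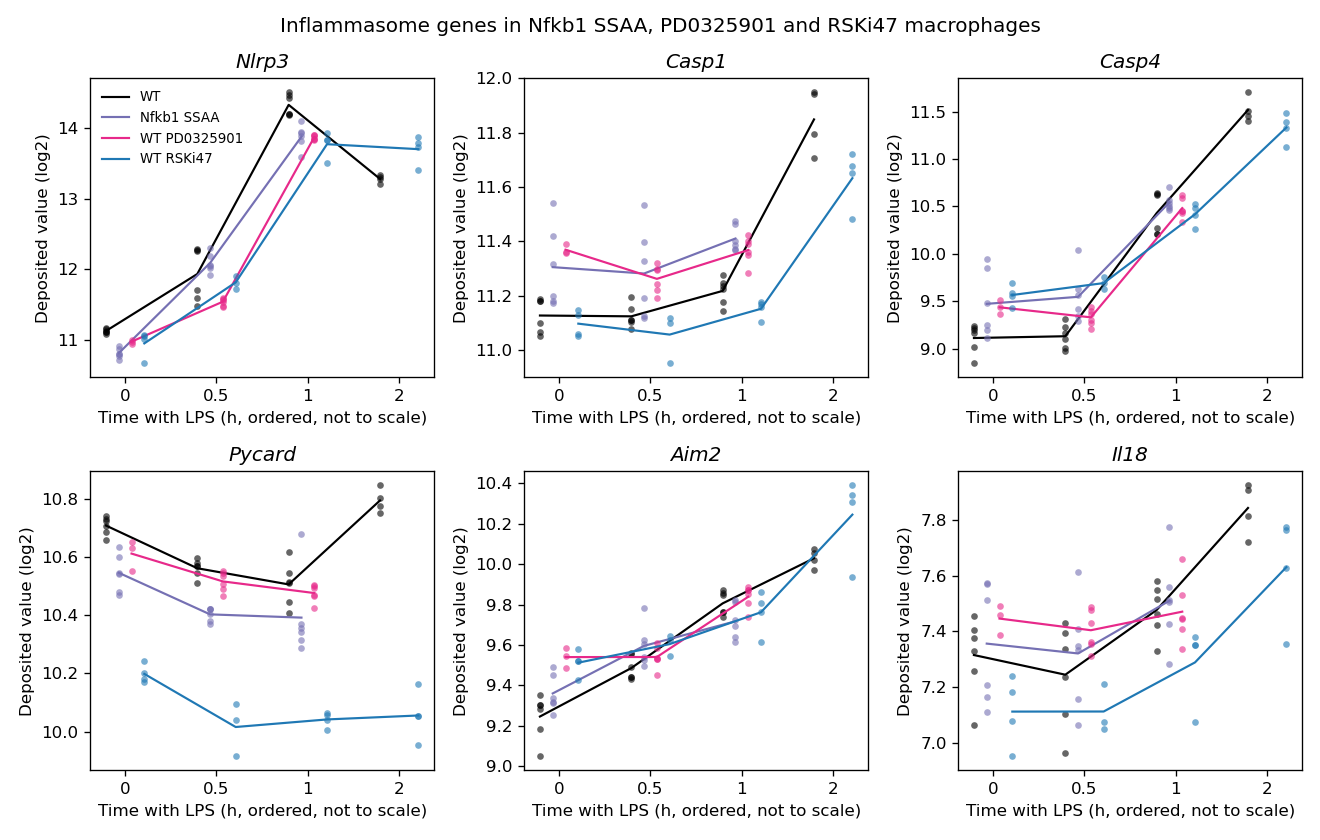
Deposited log2 values of the 6 members against time with LPS (hours, in order, not to scale) in WT, Nfkb1 SSAA, PD0325901 and RSKi47 BMDMs, with 1 point per library and a line through the group means; PD0325901 at time 0 is 10 min of inhibitor alone. With RSKi47 the mean of Nlrp3 is 13.77 at 1 h and 13.70 at 2 h, while WT goes from 14.33 to 13.28, and Pycard with RSKi47 lies below WT at all 4 times.

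Measured from each arm's own unstimulated libraries, the Nlrp3 rise with RSKi47 was 0.87 ± 0.10 at 0.5 h, 2.83 ± 0.09 at 1 h and 2.76 ± 0.09 at 2 h. It differed from the WT rise by 0.06 ± 0.12 at 0.5 h, -0.38 ± 0.12 at 1 h (adjusted p = 0.0371, limma) and 0.60 ± 0.12 at 2 h (0.000122). The unstimulated RSKi47 libraries were at 11.07, 11.01, 11.05 and 10.66, below WT. Their difference from WT, -0.18 ± 0.08, did not pass (0.0701). It passed without RSKi47 replicate 1 (0.045) or 3 (0.0488) or after quantile normalization (-0.23, 0.0125), and was -0.08 (0.437) without replicate 4. At 0.5 h (11.80, 11.72 and 11.91) the difference of -0.12 ± 0.09 (0.287) passed without WT replicate 4 (-0.21, 0.0434) and was -0.05 without WT replicate 7, 8 or 9 (0.657 to 0.681). The 1 h response difference of Nlrp3 did not pass without any 1 of WT replicates 4 to 6 or RSKi47 replicates 1 to 3 (0.0528 to 0.13), without the filter (0.0532), after quantile normalization (-0.19, 0.411) or with only the groups of the contrast (0.114), whereas that at 2 h passed with each library left out (0.57 to 0.63).

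**Figure D4:**
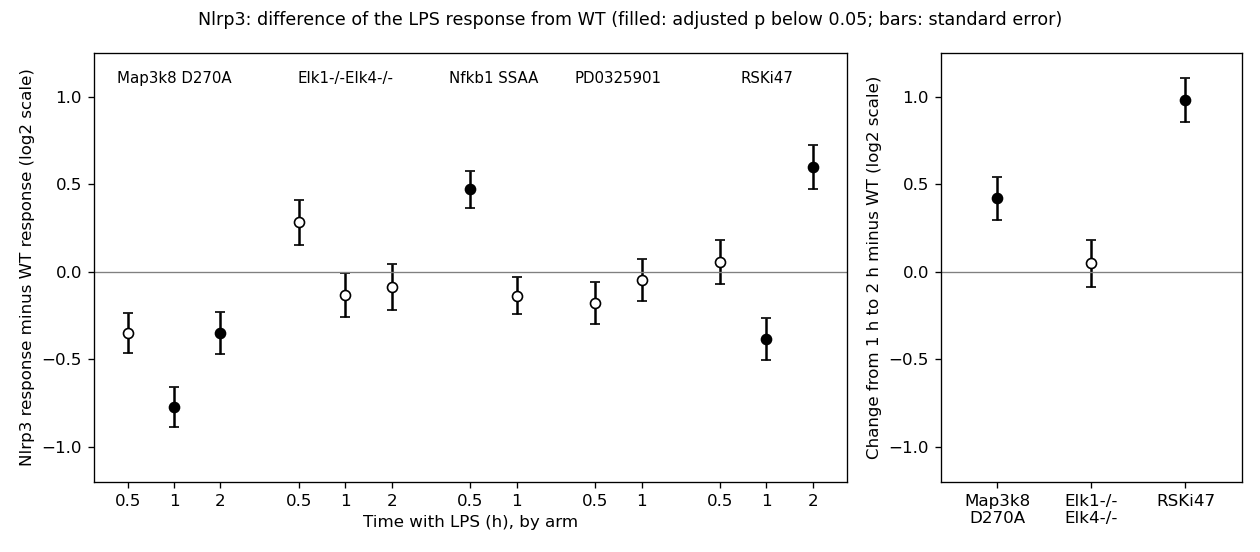
Difference of the Nlrp3 response to LPS from the WT response (log2 scale, left, by arm and hours of LPS) and of the change from 1 to 2 h (right), with bars of 1 SE and filled points for an adjusted p below 0.05. The lowest point is Map3k8 D270A at 1 h (-0.77) and the highest is the change from 1 to 2 h with RSKi47 (0.98).

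Pycard was lower than in WT with RSKi47 at all 4 times, without overlap. Its values were 10.17, 10.18, 10.20 and 10.24 without LPS, 9.92, 10.10 and 10.04 at 0.5 h, 10.04, 10.06, 10.01 and 10.06 at 1 h and 9.95, 10.16, 10.05 and 10.05 at 2 h. The difference from WT was -0.51 ± 0.04 without LPS (adjusted p = 1.24e-19, limma), -0.54 ± 0.04 at 0.5 h (8.78e-19), -0.46 ± 0.04 at 1 h (1.77e-17) and -0.74 ± 0.04 at 2 h (5.31e-27). Pycard stayed at the 1 h level between 1 and 2 h with RSKi47 (0.01 ± 0.04) whereas it rose by 0.29 ± 0.04 in WT, a difference of -0.27 ± 0.06 (0.000413). Its 2 h response differed by -0.23 ± 0.06 (0.00272), or -0.10 (0.264) after quantile normalization.

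Casp4 with RSKi47 started higher and rose less. It was at 9.55, 9.59, 9.69 and 9.43 without LPS and at 9.63, 9.76 and 9.69 at 0.5 h, above every WT library. It reached 10.26, 10.48, 10.52 and 10.41 at 1 h and 11.33, 11.39, 11.49 and 11.12 at 2 h, overlapping WT. The difference was 0.45 ± 0.10 without LPS (adjusted p = 0.000128, limma), 0.56 ± 0.11 at 0.5 h (2.27e-05), -0.01 ± 0.10 at 1 h (0.934) and -0.19 ± 0.11 at 2 h (0.165). The response was smaller than in WT by 0.47 at 1 h, a difference of -0.47 ± 0.15 (0.0388), and by 0.64 at 2 h, a difference of -0.64 ± 0.15 (0.000927). The 1 h difference did not pass without any 1 of WT replicates 4 to 6 or RSKi47 replicates 1 to 3 (0.0777 to 0.167), without the filter (0.0568) or with only the groups of the contrast (0.0848), and that at 2 h passed with each library left out (-0.68 to -0.59).

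Aim2, Il18 and Casp1 were compared in the same way with RSKi47. Aim2 was higher than in WT without LPS by 0.27 ± 0.08 (adjusted p = 0.00357, limma), with values of 9.52, 9.52, 9.58 and 9.43, all above WT. At 2 h (10.34, 10.39, 10.31 and 9.94) Aim2 overlapped WT through RSKi47 replicate 4 alone. Its difference was 0.22 ± 0.09 (0.0327), or 0.32 (0.00248) without replicate 4. It did not pass without WT replicate 5 (0.0589) or 7 (0.0836) or RSKi47 replicate 1 (0.106), 2 (0.145) or 3 (0.0861), after quantile normalization (0.0662), with median centring (0.0613) or with only the groups of the contrast (0.103). The 1 h response of Aim2 differed from that of WT by -0.31 ± 0.11 (0.0964), which passed with replicate blocks within each arm (0.0113), with library weights (0.00805), after quantile normalization (0.0454) and with only the groups of the contrast (0.0366). Il18 was lower by 0.20 without LPS (-0.20 ± 0.09, 0.0391) and by 0.21 at 2 h (-0.21 ± 0.09, 0.0498), and Casp1 by 0.22 at 2 h (-0.22 ± 0.07, 0.0112). Without the replicate 4 libraries these 3 differences were -0.15 (0.162), -0.12 (0.302) and -0.17 (0.0769). The call of Il18 without LPS was also lost without WT replicate 4, 5, 6 or 8 or RSKi47 replicate 2 (0.052 to 0.0979), that of Il18 at 2 h without WT replicate 4, 5 or 6 or RSKi47 replicate 1 (0.0634 to 0.131), and that of Casp1 without WT replicate 4 (0.052) or 6 (0.0576). Without the filter and with only the groups of the contrast Il18 had 0.054 and 0.0565 without LPS and 0.0691 and 0.113 at 2 h, where a variance trend gave 0.0503. At 0.5 h Il18 (-0.13, 0.245) passed with library weights (-0.17, 0.0292), as did the 2 h response of Casp1 (-0.19, 0.197, or 0.0327 with weights). Il18 at 1 h (-0.19 ± 0.09, 0.0568) passed without WT replicate 9 (0.0271) or RSKi47 replicate 2 (0.0491), after quantile normalization (0.0332) and with median centring (0.0335), and was -0.12 (0.28) without RSKi47 replicate 4.

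The members with a difference from WT numbered 4 of 6 with RSKi47 alone (53% of all genes), 2 of 6 at 0.5 h (48.2%), 2 of 6 at 1 h (52.8%) and 5 of 6 at 2 h (52.1%). For the responses they were 0 of 6 at 0.5 h (0.0251%, with 451 genes and 0 members below an unadjusted p of 0.05 in limma), 2 of 6 at 1 h (5.54%) and 3 of 6 at 2 h (21%). Within the arm LPS changed 2 of 6 members at 0.5 h (5.1%), 4 of 6 at 1 h (29%), 6 of 6 at 2 h (62.2%) and 4 of 6 between 1 and 2 h (53.6%). The call of Aim2 at 1 h (0.25) was lost without RSKi47 replicate 2 (0.0825), 3 (0.0867) or 4 (0.22, 0.0912). At 1 h Il18 (0.18, 0.164) passed as well with library weights (0.0483), after quantile normalization (0.22, 0.0489) and with replicate blocks within each arm (0.0204), and at 0.5 h Pycard (-0.18) did not with only the groups of the contrast (0.101). The fibroblast genes Col1a1 and Col1a2 were higher than in WT at all 4 times, with a summed level of the 3 fibroblast markers of 4.91 to 9.41 against 3.62 to 4.74 in WT, and 4, 4, 5 and 5 of 6 neutrophil markers were higher at 0, 0.5, 1 and 2 h, while Kit was lower at 0, 1 and 2 h. Dcn, the third fibroblast marker, was below the minimum in every library, and the part of these markers in the results was not tested.

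**Figure D5:**
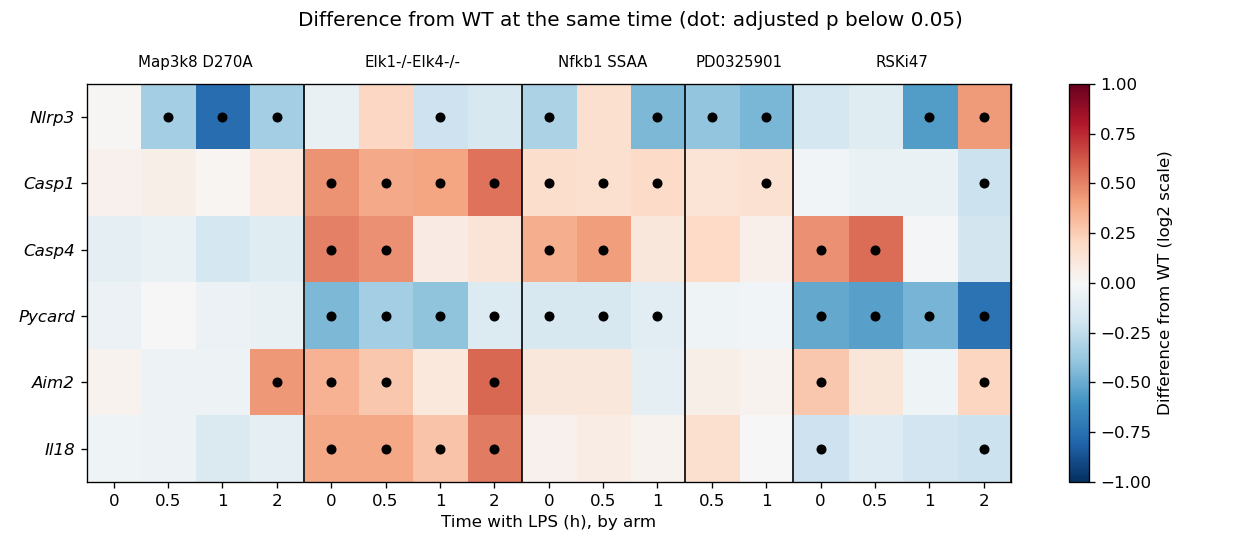
Difference of each member from WT at the same time with LPS (log2 scale, red higher and blue lower), by arm and hours of LPS, with a dot for an adjusted p below 0.05. Nlrp3 is lower than WT at 1 h in all 5 arms, from -0.76 in Map3k8 D270A to -0.21 in Elk1-/-Elk4-/- BMDMs.

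Set side by side at 1 h, the Nlrp3 means were 14.33 in WT, 14.13 in Elk1-/-Elk4-/-, 13.88 in Nfkb1[SS/AA], 13.87 with PD0325901, 13.77 with RSKi47 and 13.57 in Map3k8[D270A] BMDMs. The libraries of Nfkb1[SS/AA], PD0325901 and RSKi47 overlapped one another, and those of Map3k8[D270A] overlapped those of Nfkb1[SS/AA] and, through replicate 4 alone (13.50), those of RSKi47. These comparisons share the WT libraries. At 2 h the order of Nlrp3 was RSKi47 (13.70), WT (13.28), Elk1-/-Elk4-/- (13.12) and Map3k8[D270A] (12.94), where the lowest WT and the highest Elk1-/-Elk4-/- library were both at 13.20 when rounded. For Pycard without LPS the order ran from PD0325901 at 40 min (10.72), WT (10.71) and Map3k8[D270A] (10.65) over PD0325901 at 70 min (10.63) and 10 min (10.61), DMSO (10.59) and Nfkb1[SS/AA] (10.55) to Elk1-/-Elk4-/- (10.26) and RSKi47 (10.20). Casp1 without LPS was highest in Elk1-/-Elk4-/- (11.58), and its other means lay between 11.10 and 11.37. Casp4 without LPS was at 9.61 in Elk1-/-Elk4-/-, 9.57 with RSKi47 and 9.47 in Nfkb1[SS/AA], groups that overlapped, between 9.28 and 9.44 with DMSO or PD0325901, 9.11 in WT and 9.02 in Map3k8[D270A]. Aim2 without LPS ran from 9.60 in Elk1-/-Elk4-/- to 9.25 in WT, and Il18 from 7.70 in Elk1-/-Elk4-/- to 7.11 with RSKi47.

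A list of 37 other inflammasome pathway genes was read beside the members, of which 34 were above the minimum (Naip1, Nlrp6 and Nlrp12 were not). In WT BMDMs 2 rose and 1 fell at 0.5 h (11.6% of all genes passed in either direction), 12 rose and 5 fell at 1 h (46.8%), and 16 rose and 12 fell at 2 h (71.5%). Of 6 effectors 3 rose and 1 fell at 1 h. Il1b, the main cytokine cleaved by caspase-1, rose by 6.15 ± 0.16 and Il1a by 6.08 ± 0.18 (adjusted p = 2.8e-37 and 1.35e-34, limma). Txnip, which binds thioredoxin and can bind NLRP3, fell by 2.23 at 1 h. Of 8 other sensors tested 1 rose and 7 fell at 2 h, the riser being Mefv (2.23 ± 0.18), which encodes pyrin. Gbp5, a guanylate-binding protein, rose by 5.57 ± 0.24 at 2 h.

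Between Map3k8[D270A] and WT BMDMs none of the 34 passed limma without LPS or at 0.5 h (1.44% and 1.37% of all genes), 1 was higher and 3 lower at 1 h (9.79%), and 6 were higher and 5 lower at 2 h (27.7%). Il1a and Il1b were the most different at both times, by -1.45 ± 0.18 and -1.22 ± 0.16 at 1 h and by -2.27 ± 0.20 and -2.18 ± 0.18 at 2 h, and Il1rn, the receptor antagonist, differed by -0.91 ± 0.17 at 2 h. In Elk1-/-Elk4-/- BMDMs 22 were higher and 3 lower than in WT without LPS (51.8%), 23 and 4 at 0.5 h (44.4%), 22 and 6 at 1 h (53.4%), and 23 and 4 at 2 h (50.8%). The list median there was 0.31 without LPS, where that of all genes was 0.01. Zbp1 (1.13 ± 0.17), which senses Z-form nucleic acids, and Il18bp (1.12 ± 0.15), which neutralizes IL-18, were the most different without LPS, and 5 of 6 genes that dampen the pathway were higher at each time, where 3228, 2664, 3237 and 3291 of all 11884 genes were at 0, 0.5, 1 and 2 h.

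In Nfkb1[SS/AA] BMDMs 11 were higher and 7 lower without LPS (32% of all genes), 13 and 7 at 0.5 h (32.3%), and 9 and 8 at 1 h (42.5%), where Gbp3 differed by 1.43 ± 0.21, Il1a by -1.36 ± 0.15 and Il1b by -1.23 ± 0.14. With PD0325901 13 were higher and 7 lower at 0.5 h (29.4%), and 11 and 10 at 1 h (35.7%), where Il1a (-1.34 ± 0.15) and Il1b (-1.03 ± 0.14) differed most. With RSKi47 12 were higher and 7 lower without LPS (53%), 15 and 8 at 0.5 h (48.2%), 11 and 11 at 1 h (52.8%), and 8 and 9 at 2 h (52.1%). Serpinb1a, an inhibitor of neutrophil proteases and inflammatory caspases, was the most different of the 34 with RSKi47 at each time, by -1.45 ± 0.12 without LPS and -1.17 at 2 h. DMSO alone differed from unstimulated WT in 18 of the 34, 13 higher and 5 lower (23.6%), the most different being Zbp1 (1.07).

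Across the 25 group means, the pattern of Nlrp3 was most like that of Osgin2 (Pearson r = 0.987), Skil (0.982) and Mex3c (0.980), as a description of means that share libraries and LPS times. That of Casp4 was most like Ifi205 (0.991) and Slamf7 (0.989), that of Casp1 most like 2700060E02Rik (0.972), Lipg (0.958) and Iigp1 (0.957), and that of Aim2 most like Tlk2 (0.967), Tbk1 (0.960) and Ncoa7 (0.960). For Il18 the closest were 2700060E02Rik (0.958), Sugt1 (0.958) and Casp1 itself (0.956), and for Pycard Tmem208 (0.935), D10Jhu81e (0.933) and Wdr55 (0.931). Between members r was 0.956 for Casp1 and Il18, 0.933 for Casp4 and Aim2, 0.782 for Casp1 and Casp4, and 0.772 for Nlrp3 and Casp4, while Pycard had r between -0.30 and 0.18 with the other 5.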

How the data were processed

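RNA had been sequenced from BMDM cultures as strand-specific libraries. Per the submitters' processing notes the reads were handled with STAR 2.5.1b, RSEM 1.2.29 and DESeq2 1.10.1 against mm10. The authors deposited a single table of log2 values, normalized across libraries, from -2.40 to 19.81, with the transformation not given in the sources used here. A single value above 25 was set to missing. Counts were not used here, so the depth behind each value is unknown, and precision is limited by the number of libraries. Groups came from the sample labels, which call the libraries of a group replicates without saying whether they came from separate mice, so p-values measure the spread between these libraries.

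Genes at a linear level of at least 10 in at least 4 libraries (first fit, the 62 libraries of the WT, the Map3k8[D270A] and the Elk1-/-Elk4-/- arms, 11884 genes) or 3 libraries (second fit, all libraries, 11971 genes) were tested in limma 3.58.1 (R 4.3.3), with Benjamini-Hochberg adjustment over all genes of a comparison. The 6 members were compared with WT in 17 comparisons at matched times, in 13 differences of response (LPS against each arm's own libraries without LPS, for PD0325901 those with the same total inhibitor time) and in 3 differences of the change from 1 to 2 h, added after the data were seen. The scripts were tested on simulated data, and figures were drawn in Python 3.11.15 with matplotlib 3.10.9. The members and gene lists were chosen with earlier results of these data known. All 6 members are named, and of the pathway list mainly the 3 most different genes of a comparison. Alternatives were no filter, library weights, quantile normalization, median centring, a variance trend, groups of the contrast only, the second fit, replicate blocks, replicate sets and leaving out each library.

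Same-numbered libraries deviated together within WT (30 of 30 pairs with a correlation over 0.1, lowest 0.164) and within Nfkb1[SS/AA] (18 of 18, lowest 0.145), so replicate numbers were taken to pair libraries within those arms. The main fits nonetheless held no replicate term, and replicate blocks were run only as alternatives. Not every such pair was over 0.1 within Map3k8[D270A] (34 of 36), Elk1-/-Elk4-/- (20 of 24), RSKi47 (20 of 21) and PD0325901 (18 of 48), nor across arms. Same-numbered pairs still had median correlations of 0.425, 0.231, 0.318 and 0.0646 within these 4 arms. Other pairs there had medians of -0.0916, -0.0683, -0.0979 and -0.0296. Same-numbered WT and Map3k8[D270A] libraries had a median of -0.297. No 2 libraries held the same values. Promoter sequences and gene positions are RefSeq's (GRCm38.p6), with windows of 300 bases around each start.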

Additional observations from a re-analysis of the deposited data

Results flagged for a closer look

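Taking each member in each group of 4 or 6 libraries as a set, 5 of 120 sets had a library far from the others, where chance gives about 1 in 20. Nlrp3 in unstimulated RSKi47 replicate 4 was at 10.66, against 11.01 to 11.07 in the other 3. Il18 in RSKi47 replicate 4 at 1 h was at 7.07, against 7.35 to 7.38. Pycard in Nfkb1[SS/AA] replicate 2 at 1 h was at 10.68, against 10.29 to 10.37, and in unstimulated Elk1-/-Elk4-/- replicate 3 at 10.22, against 10.27 to 10.28. Il18 in Map3k8[D270A] replicate 4 at 1 h was at 7.14, against 7.32 to 7.41.

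Responses to LPS that differed from that of WT by the test of the difference itself were those of Nlrp3 in Map3k8[D270A] BMDMs at 1 h (-0.77) and 2 h (-0.35), of Aim2 there at 2 h (0.40) and of Pycard in Elk1-/-Elk4-/- BMDMs at 2 h (0.31). Nlrp3 in Nfkb1[SS/AA] BMDMs differed at 0.5 h (0.47). With RSKi47 Nlrp3 (-0.38) and Casp4 (-0.47) differed at 1 h, and Nlrp3 (0.60), Casp4 (-0.64) and Pycard (-0.23) at 2 h. The change from 1 to 2 h differed for Nlrp3 (0.42) and Aim2 (0.48) in Map3k8[D270A], for Pycard (0.27) and Aim2 (0.46) in Elk1-/-Elk4-/- and for Nlrp3 (0.98) and Pycard (-0.27) with RSKi47. Some calls were lost in fits that left out a replicate. For the responses these were Nlrp3 and Aim2 in Map3k8[D270A] at 2 h (6 and 7 of 12 fits) and Nlrp3 in Nfkb1[SS/AA] (3 of 12). With RSKi47 they were Nlrp3 and Casp4 at 1 h (6 of 10 each). For the later change they were Nlrp3 in Map3k8[D270A] (1 of 12) and Aim2 in Elk1-/-Elk4-/- (3 of 10).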

How the results depend on the processing

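Of 57 counts of members, 33 changed by no more than 1.5 times under every alternative run, 23 moved under another setting and 11 when a library was left out. For single members 2608 of 2760 values under other settings and 2761 of 2892 with a library left out kept their direction and their side of the threshold. The reversed values were those of Pycard at 2 h of LPS after quantile normalization, in WT (0.09 to -0.15) and in Map3k8[D270A] BMDMs (0.07 to -0.15), and the cause of the changes listed here was not tested. The pseudocount alternative did not apply to values already on a log2 scale. Median centring, a variance trend and the second fit moved no count by more than 1.5 times, and the median difference over all genes was between -0.018 and 0.0319 in every comparison.

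Without a filter, members passing went from 2 to 1 for PD0325901 at 1 h, 2 to 0 for DMSO against WT, 2 to 1 for the Map3k8[D270A] response at 2 h and 2 to 0 for the RSKi47 response at 1 h. With library weights they went from 1 to 0 and 1 to 2 for Map3k8[D270A] at 0.5 and 1 h, 1 to 3 for PD0325901 at 0.5 h, 2 to 5 for DMSO against WT, 0 to 4 and 0 to 3 for PD0325901 at 40 and 70 min, 1 to 2 and 2 to 4 within Map3k8[D270A] and PD0325901 at 0.5 h, and 0 to 1, 0 to 1 and 1 to 2 for the Elk1-/-Elk4-/- responses at 0.5, 1 and 2 h. With quantile normalization they went from 1 to 2 for PD0325901 at 0.5 h, 2 to 1 for the Map3k8[D270A] response at 2 h and 1 to 2 for that of Elk1-/-Elk4-/-. With only the groups of the contrast they went from 1 to 0 and 2 to 1 for Map3k8[D270A] at 0.5 and 2 h, 4 to 2 for unstimulated Nfkb1[SS/AA], 1 to 2 for PD0325901 at 0.5 h, 5 to 3 for RSKi47 at 2 h, 2 to 4 for DMSO against WT, 0 to 2 for PD0325901 at 70 min, 2 to 1 within RSKi47 at 0.5 h, 2 to 1 and 1 to 2 for the Map3k8[D270A] and Elk1-/-Elk4-/- responses at 2 h, 1 to 0 for the Nfkb1[SS/AA] response at 0.5 h, 2 to 1 for the RSKi47 response at 1 h and 2 to 1 for the change from 1 to 2 h in Map3k8[D270A].

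With the replicate block within each arm, counts went from 0 to 1 for PD0325901 at 40 min and 0 to 1 at 70 min, 0 to 1 and 1 to 3 for the Elk1-/-Elk4-/- responses at 1 and 2 h and 0 to 1 for the Nfkb1[SS/AA] response at 1 h. With the replicate block across 2 arms, whose numbers are shared in name only, they went from 0 to 2, 1 to 4, 1 to 4 and 2 to 4 for Map3k8[D270A] at 0, 0.5, 1 and 2 h and 1 to 2 for PD0325901 at 0.5 h, and in Nfkb1[SS/AA] the calls of Nlrp3 without LPS (-0.26, 0.0867) and Pycard at 1 h (-0.08, 0.164) were lost. Over WT replicates 4 to 6 and Map3k8[D270A] replicates 1 to 3, a split chosen after seeing the data, counts went from 1 to 0 and 1 to 3 at 0.5 and 1 h and 2 to 4 for the change from 1 to 2 h. Over the higher numbers they went from 2 to 1 at 2 h, 0 to 1 and 2 to 1 for the responses at 0.5 and 2 h and 2 to 1 for the change from 1 to 2 h. With the set as a term the count was 2 at 1 h, and with PD0325901 replicates averaged in pairs it was 1 at 1 h.

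Leaving out each library gave ranges of 0 to 1 for Map3k8[D270A] at 0.5 h, 0 to 2 for its response at 2 h, 1 to 2 for its change from 1 to 2 h, 1 to 2 for the Elk1-/-Elk4-/- response at 2 h and 1 to 2 for its change from 1 to 2 h. They were 1 to 2 for PD0325901 at 1 h, 3 to 4 for RSKi47 at 2 h, 0 to 2 for the RSKi47 response at 1 h, 1 to 2 within RSKi47 at 0.5 h (1 without replicate 1), 0 to 1 for DMSO against WT and 0 to 1 for the Nfkb1[SS/AA] response at 0.5 h.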
